A study of Mus musculus with 8 samples.

Results

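Hepatic stellate cells (HSC) and mesothelial cells (MC) sorted from mouse livers with biliary fibrosis were set against each other, 1 expression array each, 2 of the 8 arrays of the series. The HSC array comes from cells positive for vitamin A and the MC array from cells positive for GPM6A, both from adult Col1a1-GFP transgenic mice on a C57Bl6 background, with biliary fibrosis as the only injury named. The transgene places GFP under control of the Col1a1 collagen gene, and it is carried by the other sorted fractions as well. Arrays used for orientation were portal fibroblasts (PF) of biliary fibrosis, HSC and MC with no stated injury and the same genotype, and whole liver of a wild-type C57Bl6 adult. The remaining arrays of the series were PF from a sham operation and GFP-positive cells negative for vitamin A. They are shown in the colour map of all 8 arrays. How the fibrosis was induced, its duration and the number of mice per array are not given in the labels. The contrast covers 20677 genes, each read from its brightest probe set on average.

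Stellate cells are the pericytes of the liver sinusoid, where they store vitamin A as retinyl esters in lipid droplets and, on injury, can become matrix-producing myofibroblasts. Mesothelial cells form the epithelial sheet that covers the liver surface and combine keratins and junctions with mesenchymal genes. In the developing liver, mesothelium is known to give rise to stellate cells and perivascular mesenchymal cells, and the sorted fractions allow both to be compared in the same disease.

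Values are array intensities on a linear scale as deposited, and differences are HSC minus MC on the log2 scale, so that 1 unit is a doubling and a positive value means higher in HSC. A gene was counted as higher or lower when the difference reached 2 (4-fold) and the brighter of both values reached the median of its array. With 1 array per group there is no replicate, error or test, and each difference is one between single arrays. The 3'/5' ratio of the Gapdh control probe sets, which is higher where RNA or its copies are shorter, was 5.68 in HSC and 13.8 in MC. The same ratio for Actb was 4.45 in HSC and 5.98 in MC. The bacterial hybridisation control BioB stood at 1311 in HSC and 4191 in MC, and the lower quartile of intensity at 13.1 in HSC and 17.4 in MC. The part of these array properties in the results below was not tested.

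Each array carried the defining genes of its label. Lrat, the enzyme that esterifies retinol for storage, had an intensity of 6573 in HSC and 9.82 in MC. Pdgfrb, the receptor for PDGF-B, had 3100.1 in HSC and 39.1 in MC. Conversely Upk1b, a uroplakin of the apical surface, had 5.61 in HSC and 5769 in MC, and the membrane mucin Muc16 had 9.34 in HSC and 6120.4 in MC. The log2 differences were 9.39 for Lrat (probe sets 6.08 to 9.39), 6.31 for Pdgfrb, -10.01 for Upk1b (probe sets -10.01 to -6.35) and -9.36 for Muc16. Gpm6a itself, whose protein was the sort marker of MC, had 35.8 in HSC and 9932 in MC, a difference of -8.12 for a gene that the gate itself used. Vitamin A was the sort criterion of HSC, so vitamin A genes are not independent of that gate.

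The promoters of a few of these identity genes are shown to place the measured genes in the genome. Each window runs from 250 bases before to 50 bases after the annotated start (RefSeq, GRCm38.p6), read 5' to 3', with capitals for matches on either strand to TATAAA (a core promoter element), CCAAT (known from NF-Y), AGATAA (known from a family of zinc finger factors), TGANTCA (AP-1), CATTCC (TEAD factors), GGGCGG (Sp1 and its relatives) or CAGCTG (an E-box). Lrat and Reln were among the highest genes in HSC, Muc16 and Gpm6a among the highest in MC.
Lrat (chr3:82903925-82904224, minus strand): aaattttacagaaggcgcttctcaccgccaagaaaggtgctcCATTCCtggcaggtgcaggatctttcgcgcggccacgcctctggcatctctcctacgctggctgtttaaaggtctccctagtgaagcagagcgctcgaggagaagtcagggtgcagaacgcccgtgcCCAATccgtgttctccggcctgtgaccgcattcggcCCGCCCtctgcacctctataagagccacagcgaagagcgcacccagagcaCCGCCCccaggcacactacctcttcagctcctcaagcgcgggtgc
Reln (chr5:22344656-22344955, minus strand): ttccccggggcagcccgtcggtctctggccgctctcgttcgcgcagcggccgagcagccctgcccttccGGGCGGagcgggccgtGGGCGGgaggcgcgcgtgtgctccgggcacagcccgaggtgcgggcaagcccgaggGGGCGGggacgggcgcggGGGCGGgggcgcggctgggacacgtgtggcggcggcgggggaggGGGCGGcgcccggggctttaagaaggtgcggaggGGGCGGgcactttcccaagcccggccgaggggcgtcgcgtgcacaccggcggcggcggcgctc
Muc16 (chr9:18674554-18674853, minus strand): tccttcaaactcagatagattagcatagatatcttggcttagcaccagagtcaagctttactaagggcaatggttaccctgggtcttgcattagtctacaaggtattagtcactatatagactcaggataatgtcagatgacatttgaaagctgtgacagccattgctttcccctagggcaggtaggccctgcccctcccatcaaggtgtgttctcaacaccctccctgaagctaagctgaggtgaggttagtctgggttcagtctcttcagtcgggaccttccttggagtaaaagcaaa
Gpm6a (chr8:54779184-54779483, plus strand): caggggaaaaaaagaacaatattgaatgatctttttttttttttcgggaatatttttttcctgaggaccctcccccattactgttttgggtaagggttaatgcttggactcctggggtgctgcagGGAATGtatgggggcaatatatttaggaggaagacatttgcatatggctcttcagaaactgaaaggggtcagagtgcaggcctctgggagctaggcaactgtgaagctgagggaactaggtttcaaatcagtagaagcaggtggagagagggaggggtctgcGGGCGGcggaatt
The Reln window is GC-rich (80.7%) and holds 6 matches to GGGCGG, while the Muc16 window (46.7% GC) holds none of the 7 motifs. Windows not shown ran the other way. That of Bmp5, higher in HSC, had 43.3% GC and none of the 7 motifs. That of Bnc1, lower in HSC, had 83.3% GC and 6 matches to GGGCGG. Lrat has 1 match to CCAAT, 1 to CATTCC and 2 to GGGCGG, and Gpm6a has 1 to CATTCC and 1 to GGGCGG. For Gpm6a 2 promoters are listed, of which 1 is shown. No matches overlapped in these windows. GGGCGG occurred in 53.4% of the 848 promoters of genes higher in HSC, in 58.3% of the 619 promoters of genes lower in HSC and in 54.5% of all 14358 measured genes with a promoter entry. CATTCC was found in 13.2% of the higher, 14.9% of the lower and 13.0% of all, and CAGCTG in 17.6%, 17.4% and 16.03% in the same order. For TATAAA the shares were 10.97%, 10.7% and 9.77%, for CCAAT 37.1%, 35.9% and 38.1%, for AGATAA 7.31%, 8.4% and 8.02%, and for TGANTCA 7.08%, 6.79% and 6.23%. These shares are descriptions of short windows and were not tested.

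In all, 1185 genes (5.73% of those measured) were at least 4-fold higher in HSC and 854 (4.13%) at least 4-fold lower, 9.86% in either direction. The median difference over all genes was -0.15, with quartiles of -0.80 and 0.57. Differences of 6 or more in size, or 64-fold, were seen for 50 genes higher in HSC and 44 lower. The dim array lay below its own median for 602 of the higher genes (50.8%) and 405 of the lower genes (47.4%), a range near the array background. Of the higher genes, 442 had several probe sets at the minimum level, and for 92 of them the probe sets went both ways. Among the lower genes these numbers were 300 and 50.

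**Figure D1:**
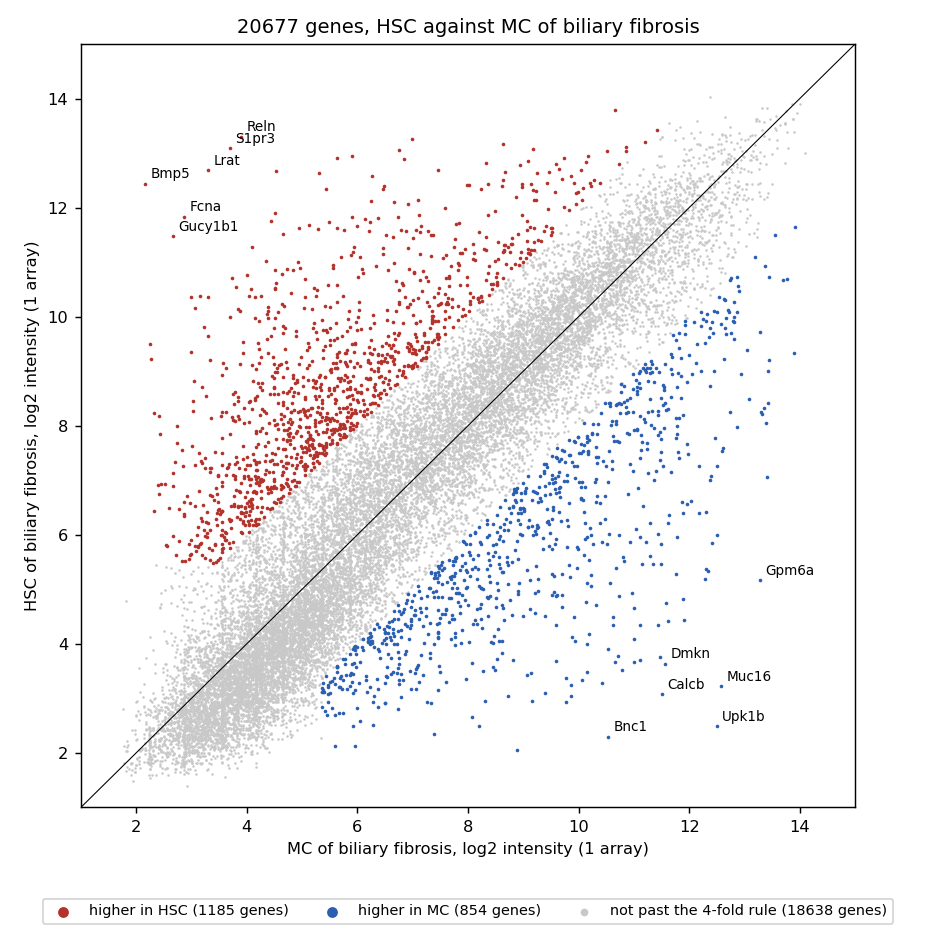
Each point is 1 of 20677 genes, with the log2 intensity in HSC of biliary fibrosis on the vertical axis and in MC of biliary fibrosis on the horizontal axis. The 1185 genes at least 4-fold higher in HSC (red) lie above the diagonal and the 854 lower genes (blue) below it, with the names of some of the largest differences beside their points.

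The 15 genes highest in HSC included receptors, secreted ligands, enzymes and secreted liver proteins. Bmp5, a bone morphogenetic protein, had 5547 in HSC and 4.47 in MC, a difference of 10.28 (probe sets 6.03 to 10.28). Reelin, Reln, a secreted glycoprotein known in the liver as a stellate cell product, had 10082 in HSC and 14.8 in MC (9.41). The sphingosine-1-phosphate receptor S1pr3 had 8691 in HSC and 13.0 in MC (9.39), though its 3 probe sets ranged from 0.83 to 9.39. Ficolin A, Fcna, a lectin that starts the complement cascade, had 3645 in HSC and 7.26 in MC (8.97). Gucy1b1, the beta subunit of the nitric oxide receptor, had 2837 in HSC and 6.36 in MC (8.80, probe sets 2.85 to 8.80), and the endothelin receptor Ednra had 6504 in HSC and 23.1 in MC (8.13, probe sets 2.99 to 8.13). Next came Itga8 (7.39, probe sets 2.15 to 7.39), the Wnt antagonist Frzb (7.33, probe sets 4.03 to 7.33), the potassium channel subunit Abcc9 (7.32), the glucocorticoid-activating Hsd11b1 (7.28) and the Notch target Heyl (7.19, probe sets 2.11 to 7.19). The remaining places among the 15 were taken by secreted liver proteins, namely the acute-phase Orm1 (7.37), Serpina7 (7.25) and Serpina1b (7.22), the last from a family of near-identical copies. The order among the first genes depends on dim values and on the probe set: with low values raised to a common level, Reln had 9.18 and Bmp5 8.32, and Muc16 -8.46 and Upk1b -8.37. Only 1 of 2 probe sets of Reln reached the minimum level, and with their mean Reln had 5.82. Over the 15 genes, intensities ran from 724 to 10082 in HSC and from 4.47 to 49.3 in MC.

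On the MC side, Upk1b and Muc16 were followed by Calcb, a calcitonin gene-related peptide, with 8.43 in HSC and 2923 in MC (-8.44). Bnc1, a zinc finger protein of epithelia and mesothelium, had 4.90 in HSC and 1480 in MC (-8.24). Dermokine, Dmkn, had 12.4 in HSC and 3039 in MC (-7.94), and the atrial myosin light chain Myl7 had 13.5 in HSC and 2827 in MC (-7.71). The proteoglycan Spock2 (-7.46), the potassium channel Kcnd3 (-7.40), the Wnt enhancer Rspo1 (-7.33), the protease Prss12 (-7.27), Upk3b (-7.20), the neuronal filament Prph (-7.13, probe sets -7.13 to -1.91), the cell adhesion gene Tenm3 (-7.11, probe sets -7.11 to -2.72) and Vwc2 (-7.08) completed the 15. For Vwc2, Kcnd3 and Spock2 only 1 of several probe sets reached the minimum level, so no range is given. With only probe sets without a letter suffix in their name, Vwc2 had -1.30. With the mean of probe sets, Kcnd3 had -2.77 and Spock2 -4.36. Intensities of these 15 genes ran from 4.90 to 36.5 in HSC and from 1367 to 9932 in MC.

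In PF of biliary fibrosis, Upk1b had an intensity of 1804 and Gpm6a 3202, while Lrat had 12.3 and Reln 57.8. Of the 15 genes highest in HSC, 11 were at least 4-fold brighter in that PF array than in MC, among them Ednra (2487 in PF) and S1pr3 (1758 in PF). Of the 15 lowest in HSC, 14 were at least 4-fold brighter in that PF array than in HSC. Each set had been chosen for low values on the array that PF is set against, which favours such counts. No share over all genes stands beside them. With no stated injury, 13 of the 15 genes highest in HSC and all 15 of the others passed the 4-fold rule the same way. The exceptions were Orm1 and Serpina7, with differences of 1.58 and 0.43 there.

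**Figure D2:**
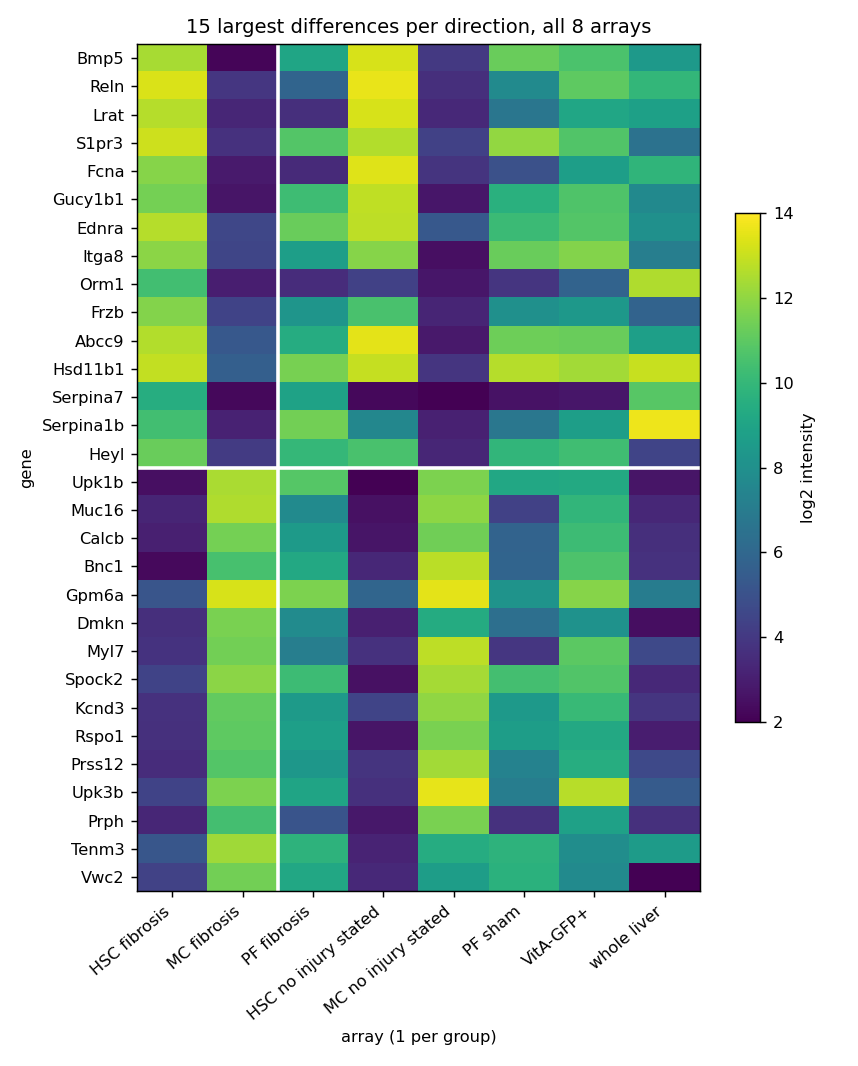
Colour gives the log2 intensity of the 15 genes highest in HSC (above the white line) and the 15 lowest in HSC (below it) on each of the 8 arrays, with the 2 arrays compared at the left. Bmp5, Reln and Lrat are bright in both HSC arrays and dark in both MC arrays, and Upk1b and Muc16 are the reverse.

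Stellate cell markers were higher in HSC as a group. Of 32 measured markers, 30 passed the 4-fold rule and 0 were lower, with a median difference of 4.39. Beside Lrat and Reln, the chemokine Cxcl12 had 8514 in HSC and 108 in MC (6.29), and the R-spondin Rspo3 had 3155 in HSC and 49.3 in MC (5.999). The neurotrophin receptor Ngfr had 1478 in HSC and 22.7 in MC (6.03), and the intermediate filament Des had 991 in HSC and 56.6 in MC (4.13). Only 1 of 3 probe sets of Ngfr reached the minimum level, and with their mean Ngfr had 2.70. The transcription factors Lhx2 (5.11) and Hand2 (2.47, probe sets -0.19 to 2.47) were on the same side. The markers short of the rule were Steap4, with 8185 in HSC and 5551 in MC (0.56), and Gfap, with 121 in HSC and 43.2 in MC (1.48). In MC, 10 of the 32 markers lay below the array median, but Ecm1 stood at 10949 in HSC and 2727 in MC, so the list was not absent there.

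Mesothelial markers were lower in HSC. Of 29 measured, 23 were at least 4-fold lower in HSC and 0 higher, with a median of -4.88. Mesothelin, Msln, had 20.4 in HSC and 2201 in MC (-6.75), the keratin Krt7 had 97.6 in HSC and 3763 in MC (-5.27), and the secreted protease inhibitor Slpi had 252 in HSC and 7446 in MC (-4.88). Wt1, a transcription factor of the mesothelium, was closer, with 962 in HSC and 5427 in MC (-2.50), as was podoplanin, Pdpn, with 1629 in HSC and 13264 in MC (-3.03). Keratins Krt8 and Krt18 were bright on both arrays, with 1813 and 2109 in HSC and 6136 and 5990 in MC, and their differences of -1.76 and -1.51 did not reach 4-fold. Calb2 lay below the median of both arrays (18.3 in HSC and 20.2 in MC). Of the mesothelial list, 8 genes also stand on the epithelial or cholangiocyte lists.

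Genes of vitamin A uptake and storage were either higher in HSC or did not pass the 4-fold rule, while most of those of retinoic acid metabolism did not pass it. For uptake and storage, 8 of 14 genes were higher and 0 lower, with a median of 2.72, and 5 had negative differences. The 8 include Ttr (3.35) and Rbp4 (3.63), carriers of retinol in blood that hepatocytes secrete, and hepatocyte markers as a list were also higher (median 4.30). Their part in this was not tested. The carotenoid-cleaving Bco1 had 1443 in HSC and 38.7 in MC (5.22) and lipoprotein lipase, Lpl, had 9203 in HSC and 395 in MC (4.54). Stra6, the retinol-binding protein receptor of other tissues, was dim on both arrays, with 9.07 in HSC and 12.6 in MC. In the retinoic acid list, 4 of 23 were higher and 0 lower, with a median of -0.01. They were the synthesising enzyme Aldh1a3 (3.75, probe sets 0.46 to 3.75), the alcohol dehydrogenase Adh1 (3.70), the retinoic acid hydroxylase Cyp26a1 (2.78) and the receptor Rarb (2.68). Aldh1a2, an enzyme that makes retinoic acid, had 599 in HSC and 922 in MC (-0.62). Of 16 lipid droplet genes, 2 were higher, the lipase inhibitors Hilpda (5.67) and G0s2 (4.72), and the droplet coat gene Plin2 had 5313 in HSC and 1834 in MC (1.53).

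Matrix genes differed by kind rather than as a block. Among 27 genes of fibrillar collagens and their cross-linking, 5 were higher and 1 lower, with a median of 0.89. Col1a1, the gene behind the GFP reporter, had 8625 in HSC and 4185 in MC (1.04), and Col3a1 had 11410 in HSC and 3659 in MC (1.64), both short of the 4-fold rule. Col1a2 had 8446 in HSC and 1859 in MC (2.18), and Lox, which cross-links collagen, had 3231 in HSC and 1520 in MC (1.09). Loxl4 (3.56), Col24a1 (2.79), Col5a3 (2.11) and Loxl3 (2.10) were also higher, and the lysyl hydroxylase Plod3 (-2.36) was lower.

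Basement membrane genes split, with 5 of 23 higher in HSC, 6 lower and a median of -0.16. Laminin chains Lama1 (1097 in HSC, 14.7 in MC, a difference of 6.22), Lama2 (4.83) and Lamb1 (4.49) were higher in HSC, with Col15a1 (4.67) and Nid2 (2.15). Among those lower in HSC were the chains Lamc3 (-3.56), Lama3 (-2.41) and Lama5 (-2.14), and the collagens Col4a4 (233 in HSC, 1879 in MC, -3.01) and Col4a6 (-2.75).

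Proteoglycans, elastic fibre and matricellular genes had a median of 1.33, with 13 of 40 higher and 4 lower. Higher in HSC were Emilin1 (6.34, probe sets 1.06 to 6.34), Sparcl1 (6.25), lumican, Lum (1908 in HSC, 46.9 in MC, 5.35), tenascin C, Tnc (5.33), and periostin, Postn (4512 in HSC, 136 in MC, 5.05). Osteopontin, Spp1, had 2492 in HSC and 421 in MC (2.57). Fibromodulin, Fmod, ran the other way with 1686 in HSC and 7427 in MC (-2.14), as did Mfap5 (-2.56), Fbln2 (-2.45) and Omd (-2.20). Matrix proteases and inhibitors had 8 of 30 higher and 0 lower, with a median of 1.36. The metalloproteases Adamts12 (6.98) and Mmp10 (3.88) and the protease inhibitor Serpine2 (5.83) led, while Timp1, a metalloprotease inhibitor, was about level with 1076 in HSC and 1146 in MC (-0.09).

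Many contractile and vasoactive genes were higher in HSC, while 10 of 20 contractile and 13 of 30 vasoactive genes did not pass the rule. Smooth muscle genes had 10 of 20 higher and 0 lower, with a median of 1.85. The light chain Myl9 had 1454 in HSC and 16.8 in MC (6.44), smooth muscle myosin, Myh11, had 681 in HSC and 18.7 in MC (5.19, probe sets 0.82 to 5.19), and Tagln had 2569 in HSC and 272 in MC (3.24). Smooth muscle actin, Acta2, had 2845 in HSC and 1143 in MC (1.32), short of the rule. That value rests on its bright probe set, since the 2 other probe sets, both dim on both arrays, differed by 0.84 and -0.32. Pericyte channels and vasoactive receptors had 16 of 30 higher and 1 lower, with a median of 2.54. Among them were the endothelin receptor Ednrb (8661 in HSC, 576 in MC, 3.91), the signalling regulator Rgs4 (4.51), the Notch receptor Notch3 (4.002) and the prostaglandin receptor Ptger2 (3.96). The natriuretic peptide receptor Npr1 (-2.82) was lower in HSC.

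Ligands and antagonists of several pathways were divided between both cell types. For the BMP pathway, 6 of 22 genes were higher in HSC and 4 lower, with a median of 0.05. The ligands Bmp5, Gdf10 (5.88), Gdf2, also called BMP9 (5557 in HSC, 561 in MC, 3.31), Bmp10 (3.12) and Bmp2 (2.00) were higher, with the target gene Id3 (2.97). The antagonists Chrdl1 (69.3 in HSC, 2111 in MC, -4.93) and Bmper (1084 in HSC, 5799 in MC, -2.42), the receptor Bmpr1b (-2.14) and Id4 (-2.63) were lower.

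Wnt and R-spondin genes had 4 of 32 higher, 3 lower and a median of -0.47. Rspo3 was bright in HSC and Rspo1 in MC (12.7 in HSC, 2052 in MC, -7.33). The Wnt antagonists also differed in direction, Frzb being higher in HSC and Sfrp2 lower, with 57.9 in HSC and 5458 in MC (-6.56). Hedgehog genes had 3 of 15 higher and 4 lower, with a median of -0.79. The hedgehog antagonist Hhip had 1107 in HSC and 20.8 in MC (5.74), whereas the transcriptional effectors Gli2 (38.9 in HSC, 730.2 in MC, -4.23) and Gli1 (-2.73), the co-receptor Cdon (-3.33) and the signal transducer Smo (-2.08) were lower in HSC.

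Growth factor genes had 8 of 32 higher and 6 lower, with a median of 0.29. PDGF receptors were higher in HSC, Pdgfra having 5453 in HSC and 252 in MC (4.43), and the ligand Pdgfc was lower, with 423 in HSC and 5317 in MC (-3.65). Hgf, the hepatocyte growth factor, had 1336 in HSC and 53.1 in MC (4.65), and its receptor Met had 417 in HSC and 2983 in MC (-2.84). The IGF-binding proteins Igfbp5 (591 in HSC, 11066 in MC, -4.23) and Igfbp6 (-5.27) were lower, and Igfbp3 (4.75) and Igf1 (4.76) higher. Of 27 TGF-beta and activin genes, 5 were higher and 0 lower (median 0.18), led by the co-receptor Eng (4.32) and Tgfbi (3.13, probe sets 1.91 to 4.93). Tgfb2 had 2791 in HSC and 2552 in MC (0.13).

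Neurotrophic, angiogenic and guidance genes were similarly divided, with 11 of 40 higher, 5 lower and a median of 0.05. Reln and the neurotrophin receptor Ngfr, both described above, were among the higher genes. The guidance receptors Robo2 (4.62) and Robo1 (2.92) were higher in HSC, and their ligands Slit2 (53.1 in HSC, 1014 in MC, -4.26) and Slit3 (281 in HSC, 3485 in MC, -3.63) lower. The semaphorins Sema3c (-6.03) and Sema3e (-4.01) were also lower. Integrins had 5 of 19 higher, led by Itga8 and Itga9 (6.15, probe sets 2.27 to 6.15), and 2 lower, the epithelial Itgb4 (-2.52) and Itga3 (-2.46), with a median of 0.68.

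Transcription factors were divided. Of 40, 11 were higher in HSC and 8 lower, with a median of 0.47. Tcf21, a factor of visceral mesenchyme, had 1745 in HSC and 16.1 in MC (6.76), Prrx1 had 1011 in HSC and 20.9 in MC (5.60, probe sets 2.20 to 5.60), and Foxc2 had 488 in HSC and 11.7 in MC (5.38). Twist2 (4.83), the bile acid receptor Nr1h4 (3.73), Zeb2 (2.52, probe sets 0.93 to 4.46) and Snai2 (2.51) were higher too. Isl1 (43.7 in HSC, 905 in MC, -4.37), Myrf (60.6 in HSC, 1108 in MC, -4.19), Bnc2 (-3.77), Tbx18 (-3.22) and Meis2 (-3.16) were lower.

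More epithelial and surface genes were lower in HSC than higher, but most epithelial genes and 10 of 21 surface genes did not pass the 4-fold rule. Epithelial junctions and keratins had 10 of 35 lower and 4 higher, with a median of -1.21. Krt14 had 18.1 in HSC and 1173 in MC (-6.02), Krt19 had 116 in HSC and 2146 in MC (-4.21), and E-cadherin, Cdh1, had 419 in HSC and 3496 in MC (-3.06). The 4 running the other way were the epithelial regulators Grhl2 (204 in HSC, 27.4 in MC, 2.89) and Esrp1 (2.88), the desmosomal Dsc2 (2.82) and the claudin Cldn7 (2.46). Uroplakins, mucins and surface glycoproteins had 10 of 21 lower and 1 higher, with a median of -1.60. The lubricant Prg4 had 74.5 in HSC and 3129 in MC (-5.39), and the 1 higher gene was Gpm6b, a relative of Gpm6a, with 3087 in HSC and 110 in MC (4.81, probe sets 1.30 to 4.81). Ion and bicarbonate transport genes had 8 of 27 lower and 1 higher (median -0.78), including the carbonic anhydrase Car9 (9.49 in HSC, 927 in MC, -6.61), the exchangers Slc26a3 (-5.37) and Slc4a11 (-4.39), and the chloride channel Cftr (-3.61), against Aqp9 (3.91). With low values raised to a common level, this median was -0.13 and that of the surface genes -0.91.

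Inflammatory genes were found on both sides. Chemokines, cytokines and acute-phase genes had 14 of 42 higher in HSC and 4 lower, with a median of 0.84. The chemokines Cxcl14 (5167 in HSC, 302 in MC, 4.10) and Ccl2 (2638 in HSC, 371 in MC, 2.83) and the interleukin 6 family members Il11 (3.49), Lif (2.98) and Il6 (1210 in HSC, 199 in MC, 2.60) were higher. Lower in HSC were interleukin 18, Il18 (56.6 in HSC, 2892 in MC, -5.68), the serum amyloid Saa3 (343 in HSC, 10979 in MC, -5.00), Cxcl9 (-3.24) and Cxcl13 (-2.21). Lcn2 was close, with 1001 in HSC and 904 in MC (0.15). Complement and collectin genes had 8 of 20 higher and 1 lower (median 0.65), with Masp1 (9775 in HSC, 127 in MC, 6.27), Colec10 (6588 in HSC, 176 in MC, 5.23), Colec11 (3.84) and C6 (5.38) higher and the complement inhibitor Cd55 (-3.52) lower. MHC class II genes had 4 of 9 lower and 1 higher (median -1.08), namely H2-Eb1 (-2.72), H2-Ab1 (454 in HSC, 2455 in MC, -2.43), H2-Aa (-2.18) and the invariant chain Cd74 (-2.10) against Cd83 (2.31).

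**Figure D3:**
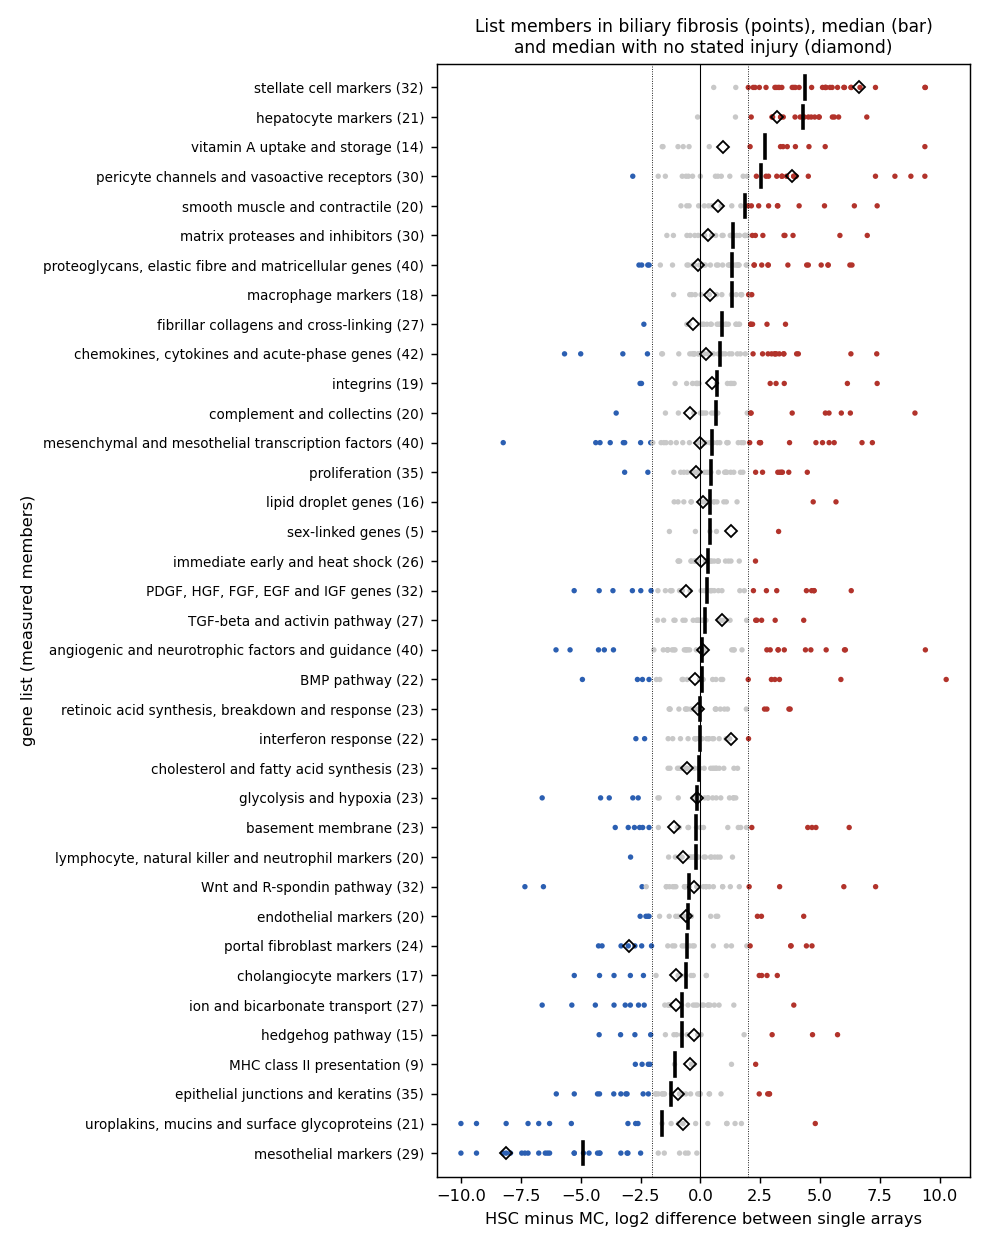
Points are the log2 differences, HSC minus MC of biliary fibrosis, of the measured members of 37 gene lists, red where at least 4-fold higher in HSC and blue where lower, with the list median as a bar. Open diamonds give the list median of the pair with no stated injury, and stellate and mesothelial markers form the 2 ends of the plot in both pairs.

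Markers of other cells were carried unequally by both arrays. Hepatocyte markers were higher in HSC, 19 of 21 passing the rule and 0 lower, with a median of 4.30. Albumin, Alb, had 2445 in HSC and 120.1 in MC (4.35), Apoa1 had 1608 in HSC and 156 in MC (3.37), Ttr had 3011 in HSC and 295 in MC (3.35), and Serpina1a, of a family of near-identical copies, had 598 in HSC and 4.81 in MC (6.96). The summed level of the list was 14.27 in HSC and 10.55 in MC on the log2 scale, and 11 of its 21 genes lay below the array median in MC. Of the 1185 genes higher in HSC, 155 (13.1%) were at least 4-fold brighter in whole liver than in HSC of biliary fibrosis, beside 164 of the 854 lower genes (19.2%) and 1910 of all genes (9.24%). The HSC value that chose the higher and lower genes also enters this comparison with whole liver. Such a choice favours a high share among lower genes and a low share among higher genes, so these shares are descriptions only. Fewer cells of a type and less of their RNA per cell cannot be told apart in such sorted pools.

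Macrophage markers had 3 of 18 higher in HSC and 0 lower (median 1.31), with a summed log2 level of 13.73 in HSC and 13.03 in MC. C1qb had 2340.0 in HSC and 1802 in MC, Csf1r 2325 in HSC and 3159 in MC, and Adgre1 192 in HSC and 77.5 in MC. Lymphocyte, natural killer and neutrophil markers had 0 of 20 higher and 1 lower, S100a9 (-2.92), with a median of -0.18 and summed levels of 11.10 in HSC and 11.59 in MC. Ptprc, the common leukocyte marker, had 615 in HSC and 243 in MC. Endothelial markers had 3 of 20 higher and 4 lower (median -0.50, sums of 12.30 in HSC and 12.24 in MC), with Stab2 at 108 in HSC and 524 in MC, and Pecam1 at 17.7 in HSC and 101 in MC.

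Cholangiocyte markers had 4 of 17 higher and 5 lower (median -0.61, sums of 12.31 in HSC and 13.54 in MC). Sox9 (647 in HSC, 69.6 in MC, 3.22), Pkhd1 (2.79), Spp1 and Cldn7 were higher in HSC, while Krt7, Krt19, Cftr, Aqp1 (-2.92) and Tspan8 (-2.38) were lower, the first 2 of which are mesothelial markers as well. Portal fibroblast markers had 5 of 24 higher and 7 lower (median -0.56, sums of 14.85 in HSC and 14.38 in MC). Col15a1, Pdgfra, Dpt (1803 in HSC, 129.9 in MC, 3.79), Htra3 (3.78) and Gpx3 (2.08) were higher in HSC, and Slit2, Dpp4 (-4.11, probe sets -5.93 to -2.84), Ptgds (-3.31), Thy1 (185 in HSC, 1493 in MC, -3.01) and Gli1 were among those lower. Whether cells of these other types account for the differences was not tested. The Y-linked Ddx3y had 3045 in HSC and 3512 in MC, and Xist had 23.4 in HSC and 57.4 in MC, so both arrays carried transcripts of the Y chromosome and little Xist.

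Dividing-cell genes were partly higher in HSC. Of 35 proliferation genes, 8 were higher and 2 lower, with a median of 0.44. Mki67 had 359 in HSC and 33.2 in MC (3.43), Cenpa had 508 in HSC and 22.9 in MC (4.47, probe sets 1.23 to 4.47), and Top2a had 147 in HSC and 15.6 in MC (3.24). The replication genes Mcm6 (310.2 in HSC, 2779 in MC, -3.16) and Tyms (-2.19) were lower. Probe sets of Tpx2 (3.70) ranged from -1.94 to 3.70 and those of Cdca8 (3.32) from -0.29 to 3.32.

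The pair of HSC and MC with no stated injury held the same contrast on 2 other arrays, which had also entered the choice of each gene's probe set. In that pair, 869 genes (4.2%) were at least 4-fold higher in HSC and 986 (4.77%) lower, 8.97% in either direction. Of the 1185 genes higher in HSC in biliary fibrosis, 513 (43.3%) were also 4-fold higher there, which is 59.0% of the 869. Of the 854 lower genes, 455 (53.3%) were also 4-fold lower, which is 46.1% of the 986. Signs were shared by 997 of the 1185 higher genes (84.1%) and 745 of the 854 lower genes (87.2%). The share of all genes with the same sign in both pairs was not counted, so these shares have no background beside them. Across all 20677 genes, Pearson's r between the 2 differences was 0.599, a description across genes, which are not independent replicates. Both pairs were sorted by the same markers, vitamin A for HSC and GPM6A for MC.

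Among genes past the rule in both pairs, and among stellate and mesothelial markers, most differences were smaller in biliary fibrosis than with no stated injury. Other groups ran the other way. The median for vitamin A uptake and storage was 2.72 in biliary fibrosis and 0.95 with no stated injury, and that for hepatocyte markers 4.30 in biliary fibrosis and 3.22 with no stated injury. For smooth muscle genes it was 1.85 in biliary fibrosis and 0.73 with no stated injury, and for surface glycoproteins -1.60 in biliary fibrosis and -0.73 with no stated injury. Over the 1185 higher genes the medians were 2.90 in biliary fibrosis and 1.502 with no stated injury, and over the 854 lower genes -2.86 and -2.34, but these genes were chosen by their difference in biliary fibrosis. Among the 513 shared higher genes, the difference was smaller in biliary fibrosis for 334, with medians of 3.47 in biliary fibrosis and 4.11 with no stated injury. Among the 455 shared lower genes it was smaller for 340, with medians of -3.24 in biliary fibrosis and -4.50 with no stated injury. Stellate markers had medians of 4.39 in biliary fibrosis and 6.64 with no stated injury, and 24 of 32 had the smaller difference in biliary fibrosis. Mesothelial markers had medians of -4.88 in biliary fibrosis and -8.13 with no stated injury, and 24 of 29 had the smaller difference in biliary fibrosis. For the mesothelial list, the median level above the array median was -0.18 in HSC of biliary fibrosis against -1.80 in HSC with no stated injury, and 6.25 in MC of biliary fibrosis against 6.49 in MC with no stated injury. For the stellate list it was 6.16 in HSC of biliary fibrosis against 6.95 in HSC with no stated injury, and 0.78 in MC of biliary fibrosis against -0.69 in MC with no stated injury. The Gapdh 3'/5' ratio in biliary fibrosis was 5.68 in HSC and 13.8 in MC, while with no stated injury it was 1.75 in HSC and 2.01 in MC. Its part in the differences between the pairs was not tested. The sample codes of the labels also differ between the pairs, so a difference in handling and the condition cannot be told apart.

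**Figure D4:**
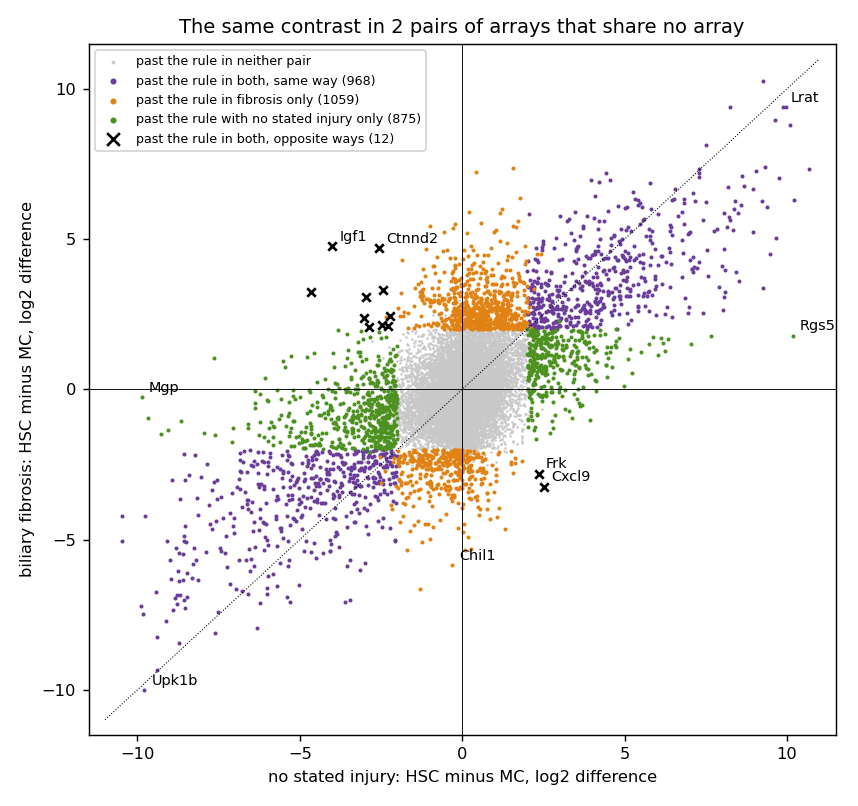
Each point is a gene, with the log2 difference, HSC minus MC, in biliary fibrosis on the vertical axis and with no stated injury on the horizontal axis, coloured by the pair in which it passed the 4-fold rule. The 513 higher and 455 lower genes shared by both pairs run along the diagonal, and the 12 crosses mark genes past the rule in opposite ways.

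Of the 8 named genes whose difference was higher in biliary fibrosis than with no stated injury by the most, 6 were dim on the HSC array with no stated injury alone. Matrix Gla protein, Mgp, had 2184 in HSC and 2605 in MC in biliary fibrosis (-0.25), against 6.94 in HSC and 6515 in MC with no stated injury (-9.87). The same was seen for the immune regulator Fgl2 (-0.96 in biliary fibrosis against -9.69 with no stated injury), the ion transport regulator Fxyd6 (1.04 against -7.63), the calcium-binding S100a6 (-1.48 against -9.27), the receptor ligand Gas6 (-1.36 against -9.07) and Cd34 (-1.07 against -8.66). For these 6 genes the 3 other arrays of the 2 pairs were bright. Mgp, Gas6 and Cd34 also stand on the portal fibroblast list. The median level of that list above the array median was 3.36 in HSC of biliary fibrosis against -0.25 in HSC with no stated injury. In MC it was 2.97 in biliary fibrosis against 3.39 with no stated injury. The part of portal fibroblasts in these differences was not tested. Igf1 had 806 in HSC and 29.8 in MC in biliary fibrosis (4.76), against 34.3 in HSC and 549.8 in MC with no stated injury (-4.001). Ctnnd2, an adhesion gene, had 4.70 in biliary fibrosis against -2.56 with no stated injury. With the mean of its probe sets it had 1.95 in biliary fibrosis.

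For another 8 genes the difference was lower in biliary fibrosis than with no stated injury. Chil1, a chitinase-like protein, had 29.4 in HSC and 1708 in MC in biliary fibrosis (-5.86), against 27.9 in HSC and 34.5 in MC with no stated injury (-0.30). Cemip, a hyaluronan-degrading protein, had 45.7 in HSC and 1807 in MC in biliary fibrosis (-5.30), against 8.52 in HSC and 6.98 in MC with no stated injury (0.29). Mad2l2, a mitotic checkpoint relative, had a difference of -4.65 in biliary fibrosis against 1.33 with no stated injury. Rgs5, a pericyte regulator of G protein signalling, had 9798 in HSC and 2833 in MC in biliary fibrosis (1.79), against 10491 in HSC and 9.06 in MC with no stated injury (10.18). Other probe sets of Rgs5 in biliary fibrosis differed by 3.65, 6.94 and 8.11, so its level in MC depends on the probe set. Ms4a4d was higher in HSC in both pairs, with 3.38 in biliary fibrosis against 9.25 with no stated injury. The semaphorin receptor Plxnc1 (1.78 against 7.65) and Rnf152 (1.52 against 7.05) did not pass the rule in biliary fibrosis. For Plxnc1 this depends on the probe set, since its probe sets there ranged from 1.78 to 3.83. With the mean of probe sets, Plxnc1 had 2.525 in biliary fibrosis. Cxcl9 had -3.24 in biliary fibrosis against 2.51 with no stated injury.

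**Figure D5:**
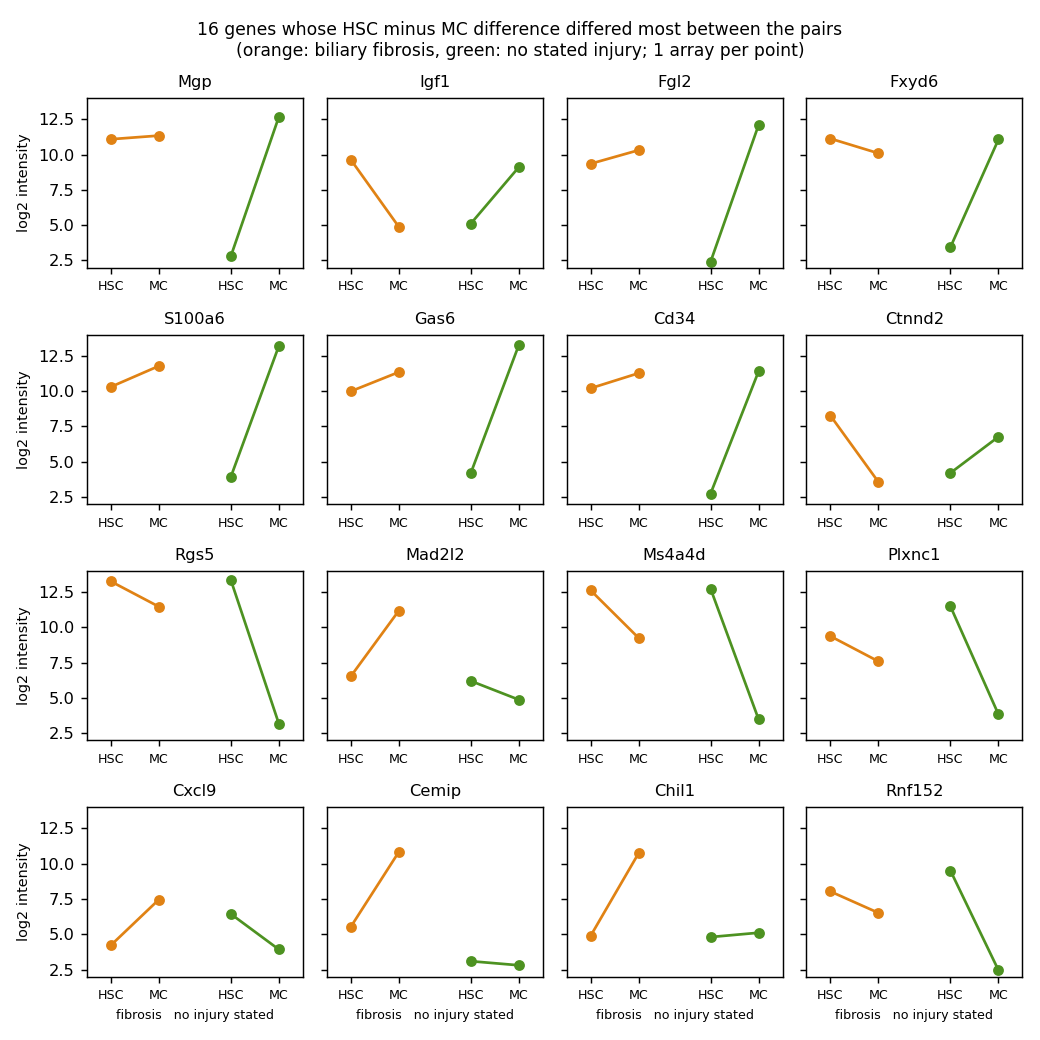
Each panel is 1 gene, with log2 intensity in HSC and MC of biliary fibrosis (orange) and in HSC and MC with no stated injury (green), 1 array per point. Mgp, Fgl2, Fxyd6, S100a6, Gas6 and Cd34 are dim only in HSC with no stated injury, and Chil1 and Cemip are bright only in MC of biliary fibrosis.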

How the data were processed

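RNA of HSC and MC of biliary fibrosis was measured on Affymetrix mouse arrays after amplification from small amounts, per the labels' protocols. Per the submitters' processing notes, the authors used Partek and RMA to make the deposited intensity values. Whether all 8 arrays were normalized jointly, and the versions, are not stated in those notes. The 2 deposited tables are identical (largest difference 0). Of 45101 probe sets, 64 are controls, 38011 name 1 gene, 1280 several and 5746 none. Of those naming 1 gene, 35012 were matched to RefSeq by gene identifier, which changed the symbol of 3174. From the linear intensities, log2 was taken here, each of 20677 genes was represented by its brightest probe set, and the MC value was subtracted from the HSC value. Where probe sets that reach the minimum differ by 3 or more, or in sign, their range is printed. Probe sets below the minimum are left out of that range.

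With 1 array per group no test was run, and the number of arrays limits the precision. The members, 37 gene lists and named genes (the 15 largest differences per direction, the 8 largest changes per direction between the pairs, 13 fixed genes and list members, without predicted genes) were chosen with earlier results of these data known. Alternatives were another normalization, minimum level, probe set choice and fold. A few list members are counted but not reported here by name. The steps were tested on simulated data. Python 3.11.15, numpy 2.4.6, pandas 2.3.3 and matplotlib 3.10.9 were used.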

Additional observations from a re-analysis of the deposited data

Results flagged for a closer look

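Between biliary fibrosis and no stated injury, 12 genes passed the 4-fold rule in opposite ways, and this difference was not tested. They were picked out after their values were seen. Higher in HSC than in MC in biliary fibrosis but lower with no stated injury were Igf1 (4.76 in biliary fibrosis, -4.001 with no stated injury), Ctnnd2 (4.70, -2.56), the mitotic gene Cdca8 (3.32, -2.42), the predicted gene 2010109K09Rik (3.23, -4.65), the adenylyl cyclase Adcy7 (3.07, -2.95), the predicted gene 5330403D14Rik (2.45, -2.23), von Willebrand factor, Vwf (2.39, -3.01), the smooth muscle coactivator Myocd (2.13, -2.48), Nudt18 (2.10, -2.28) and the secreted peroxidase Gpx3 (2.08, -2.87). Lower in biliary fibrosis but higher with no stated injury were the chemokine Cxcl9 (-3.24, 2.51) and the kinase Frk (-2.81, 2.36). The probe sets of Frk in biliary fibrosis ranged from -2.81 to 3.23 and those of Cdca8 from -0.29 to 3.32. Only 1 of 2 probe sets of Ctnnd2 reached the minimum level. With their mean, Ctnnd2 had 1.95 in biliary fibrosis, short of the rule.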

How the results depend on the processing

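With a 2-fold rule, 3016 genes were higher in HSC and 2316 lower, and with an 8-fold rule 544 and 387. Under the other 7 planned settings and 3 chosen after seeing the data the counts stayed within 1.5 times, from 790 to 1210 higher and from 622 to 989 lower. The share of genes past the rule the same way with no stated injury, 47.5%, ran from 40.5% to 55.0%. Of 222 list medians under other settings, 215 moved by 0.5 or less. Without suffixed probe sets the median was -0.34 for lipid droplet genes, 0.95 for smooth muscle genes, -0.32 for MHC class II and -0.023 for cholangiocyte markers. With the probe set brightest over the pair it was -0.21 for sex-linked genes. With low values raised, a setting chosen after seeing the data, it was -0.91 for surface glycoproteins and -0.13 for ion transport. The cause was not tested. Of 321 values of named genes, 53 moved by over 0.5. None of those past the rule changed sign, but Acta2, short of it at 1.32, was -0.32 without suffixed probe sets. Over all genes, 2 past the rule passed it the opposite way with the probe set brightest over the pair, and 2 did so without suffixed probe sets. No paired analysis was possible because each group is 1 array. Without a second array per group, no left-out replicate could be tried. Signal near background limits the size of differences for genes dim on 1 array.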

Other observations

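In other lists most genes did not pass the 4-fold rule, beside 5.73% of all genes higher in HSC and 4.13% lower. Of 23 glycolysis and hypoxia genes, 0 were higher in HSC and 5 lower, with a median of -0.12: Car9, the oxygen-sensing hydroxylase Egln3 (74.1 in HSC, 1333 in MC, -4.17), the glucose transporter Slc2a3 (95.9 in HSC, 1342 in MC, -3.81), Ndrg1 (-2.82, probe sets -3.81 to -0.80) and the enolase Eno2 (-2.60). Of 22 interferon response genes, 1 was higher, Usp18 (2.01), and 2 lower, Gbp2 (629 in HSC, 4068 in MC, -2.69) and Oasl2 (-2.33), with a median of -0.02. Of 26 immediate early and heat shock genes, 1 was higher, Egr2 (2.31), and 0 lower, with a median of 0.31. Cholesterol and fatty acid synthesis had 0 of 23 in either direction and a median of -0.04.

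The transferrin receptor Tfrc gave discordant values in biliary fibrosis. Its 3 probe sets had 74.8, 27.7 and 403 in HSC and 3977, 10.2 and 414 in MC, differences of -5.73, 1.45 and -0.04.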
